A study of Saccharomyces cerevisiae with 6 samples.

Results

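The cytosolic small-subunit ribosomal protein genes (RPS genes) of *Saccharomyces cerevisiae* are described here through the breadth and height of their H3K4me3 peaks in *jhd2∆* and WT cells. The genes were chosen by systematic name, 56 in all. In the series, 4970 genes have a peak in at least 1 of the 2 H3K4me3 peak lists, and these include every one of the 56 except *RPS28B*. They encode 32 proteins, of which 24 are made from a pair of duplicated genes, named A and B, and 8 from a single gene. For each gene the widest peak assigned to it was used, and no RPS gene had more than 1 peak or shared its peak with another gene.

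RPS proteins assemble with the 18S ribosomal RNA into the small ribosomal subunit, which binds the mRNA and reads its codons. In yeast their genes are among the most heavily transcribed by RNA polymerase II during growth, and many are driven by Rap1 together with Fhl1, Ifh1 and Sfp1. H3K4me3, trimethylated lysine 4 of histone H3, is placed by Set1 and lies towards the 5′ end of transcribed genes, and Jhd2 is the yeast JmjC-domain demethylase that removes it.

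The study compared *jhd2∆* cells, in which *JHD2* is replaced by a hygromycin resistance marker, with WT cells, both on the BY4742 background. The labels give the mating type of both as Mat a, while the strain list of the study gives MATα prototrophs. Both genotypes were grown to an optical density of 0.5 in YAR, a synthetic medium with raffinose as the carbon source and ammonium as the nitrogen source, and crosslinked with formaldehyde. Of the 6 libraries of the series, 2 are used here, 1 H3K4me3 ChIP library for each genotype, and those of pan-H3 and of whole cell lysate were not analysed here. Each genotype is 1 strain with 1 library, so there is no replicate error and no test, and differences are given as medians and quartiles over genes, which are not replicates of a genotype. The depth is known only as about 14000000 single-end reads of 51 bases per library.

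The *jhd2∆* list holds 4713 peaks assigned to 4868 genes and the WT list 4452 peaks assigned to 4628 genes. *JHD2* itself was absent from the *jhd2∆* list, while its WT peak measured 503 bp. Unequal sequencing depth or pull-down efficiency could move edges genome-wide, and its part in the results was not tested. By western blot the paper reports more bulk H3K4me3 in *jhd2∆* than in WT cells in YAR. From its ChIP-seq data it reports broader H3K4me3 domains at many genes in *jhd2∆*. By ChIP-qPCR it found more of the mark at *MRPL17*, *PMA1* and *YEF3*, which were chosen for having no breadth change. It proposes that normalization without an added external control hid a genome-wide rise. A narrower peak here is therefore not by itself a lower level of the mark.

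Nearly every RPS gene carried an H3K4me3 peak in both genotypes. A peak was listed for 54 of the 56 RPS genes in *jhd2∆* and for 55 in WT, where 78.5% of all protein-coding genes had a peak in the *jhd2∆* list and 74.3% in the WT list. *RPS28B* (YLR264W), one of the pair of genes for a small head protein of the subunit, was in neither list. The listed peaks on either side of it belong to *YPT6* and *NEJ1*, and the running peak numbers skip 2 numbers between them in each list, so peaks that were assigned to no gene in the lists may lie there. *RPS3* (YNL178W), a single-copy gene whose protein lines the mRNA entry site, was absent from the *jhd2∆* list and had a WT peak of 863 bp on chromosome XIV from 302630 to 303492. That WT peak had a pileup of 348, higher than 98.1% of genes in the WT list. No listed *jhd2∆* peak overlapped its position, 1 peak number is skipped there, between the peaks of *RHO5* and *TDA7*, and the next gene, *MRPL22*, was also absent from the *jhd2∆* list. The absence of *RPS3* is therefore an absence from the list of assigned peaks, and whether the mark itself was missing cannot be told apart from a peak left unassigned. The 54 RPS genes with a peak in both lists are compared from here on, against 4472 other genes with a peak in both.

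RPS peaks were tall in both genotypes. Pileup is the number of overlapping read fragments at the summit of a peak, and since the scaling between the lists is not stated, each height is also given as a percentile, the share of genes in the same list with a lower pileup. RPS pileups ran between 265 and 342 in *jhd2∆*, with a median of 311.5 against 272 for the whole *jhd2∆* list, and between 280 and 359 in WT, with a median of 331 against 301 for the whole WT list. In *jhd2∆* 43 of the 54 listed RPS genes stood at or above the 80th percentile of their list, and in WT 41 of the 55. The WT median and count of this paragraph thus include *RPS3*. The tallest WT peaks were those of *RPS17A*, *RPS12* and *RPS8B*, whose pileups were 322, 324 and 336 in *jhd2∆* and 359, 355 and 354 in WT. The lowest were those of *RPS30B*, *RPS11B* and *RPS10B*, with 265, 301 and 280 in *jhd2∆* and 280, 301 and 304 in WT. Percentiles ran from 36.9 (*RPS30B*) to 99.7 (*RPS6A*) in *jhd2∆*, and from 23.8 (*RPS30B*) to 99.6 (*RPS17A*) in WT. Most members, but not all, were thus among the highest 20% of each list.

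Within the lists the RPS peaks ranked somewhat higher in *jhd2∆*, and peaks of large-subunit genes did so to a similar extent. Of the 54 genes, 37 had a higher percentile in *jhd2∆* than in WT, or 68.5%, where 51.7% of all 4526 genes with a peak in both lists did. The median RPS percentile was 95.0 in *jhd2∆* and 89.6 in WT, with a median gene-by-gene change of 2.45 points, against 0.37 for the other genes. Of the 78 genes for large-subunit ribosomal proteins, 67.9% ranked higher in *jhd2∆*, with a median change of 1.34 points. The lists differ in length, with 342 genes only in *jhd2∆* and 102 only in WT, which moves the ranks. Ranked over the shared genes alone, an alternative chosen after the data were seen, 37 RPS genes (68.5%) and 48.9% of the other genes were higher in *jhd2∆*, with median changes of 2.19 and -0.18 points. Among the 40 RPS genes in the highest quintile of WT pileup, 62.5% ranked higher in *jhd2∆* and the median change was 1.48 points, and among other genes in that quintile 34.1% did and the median change was -3.17 points. Both groups were picked for high WT pileup, which by itself favours lower ranks in *jhd2∆*. Their contrast is therefore a description only. *RPS11B*, for a body protein of the subunit, had percentiles of 88.5 in *jhd2∆* and 48.7 in WT. *RPS22B* went the other way, with 53.6 in *jhd2∆* and 86.4 in WT, and so did *RPS21B*, with 57.1 in *jhd2∆* and 80.4 in WT. Neighbouring pileup values hold many genes, so a few fragments move a gene by many points in the middle of the list.

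RPS peaks were broader than those of other genes although the genes are shorter. The median breadth over the 54 genes was 855 bp in *jhd2∆* (quartiles 734.5 to 969.75 bp) and 862 bp in WT (quartiles 766 to 985.5 bp). Other genes had medians of 678 bp in *jhd2∆* and 656 bp in WT. The median RPS gene length was 800 bp, against 1264 bp for the other genes. Breadth divided by gene length had a median of 1.06 in *jhd2∆* and 1.07 in WT for RPS genes, and of 0.58 in *jhd2∆* and 0.54 in WT for other genes. The peak was at least as long as the gene for 39 RPS genes in *jhd2∆* and for 41 in WT, which is 75.9%, where 19.9% of all genes had such a peak in WT. Such WT peaks were also common at 78 large-subunit ribosomal protein genes (RPL genes, stalk proteins included), with 80.8%. In the shortest quintile of gene length, 100% of 14 RPS genes and 69.1% of other genes had one. In the next quintile 71.9% of 32 RPS genes and 20.8% of other genes did, and in the middle quintile 50% of 8 and 6.4%. Among genes in the highest quintile of WT pileup and the 2 lowest of length, 82.4% of 34 RPS genes and 70.1% of 378 others did. The breadth of an RPS peak was thus close to the listed length of its gene. Where the peak lay relative to the ends of the gene was not measured.

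RPS breadth followed gene length closely. The narrowest peak was at *RPS28A*, 328 bp in *jhd2∆* and 347 bp in WT over a gene of 203 bp, the shortest of the 54. The broadest was at *RPS0A*, 1247 bp in *jhd2∆* and 1265 bp in WT over a gene of 1213 bp. Across the 54 genes, breadth and gene length had a Pearson r of 0.91 in *jhd2∆* and 0.92 in WT, and a Spearman rho of 0.91 in *jhd2∆* and 0.90 in WT. Across the 4472 other genes r was 0.24 in *jhd2∆* and 0.23 in WT, and across the 78 RPL genes it was 0.79 in *jhd2∆* and 0.78 in WT, with a rho of 0.88 in both. With gene lengths from RefSeq, r in WT was 0.77 for RPS and 0.73 for RPL genes. These are descriptions across genes of the same 2 libraries, and RPS genes span a narrower range of lengths than other genes. *RPS22B*, whose listed length of 1439 bp is the greatest of the 54, had a peak of 1054 bp in *jhd2∆* and 1079 bp in WT, or 0.75 of the listed length in WT. Its RefSeq length is 876 bp, which is below both breadths. Against listed length *RPS24B* stood on the other side, with 1064 bp in *jhd2∆* and 1078 bp in WT over a gene of 816 bp.

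**Figure D1:**
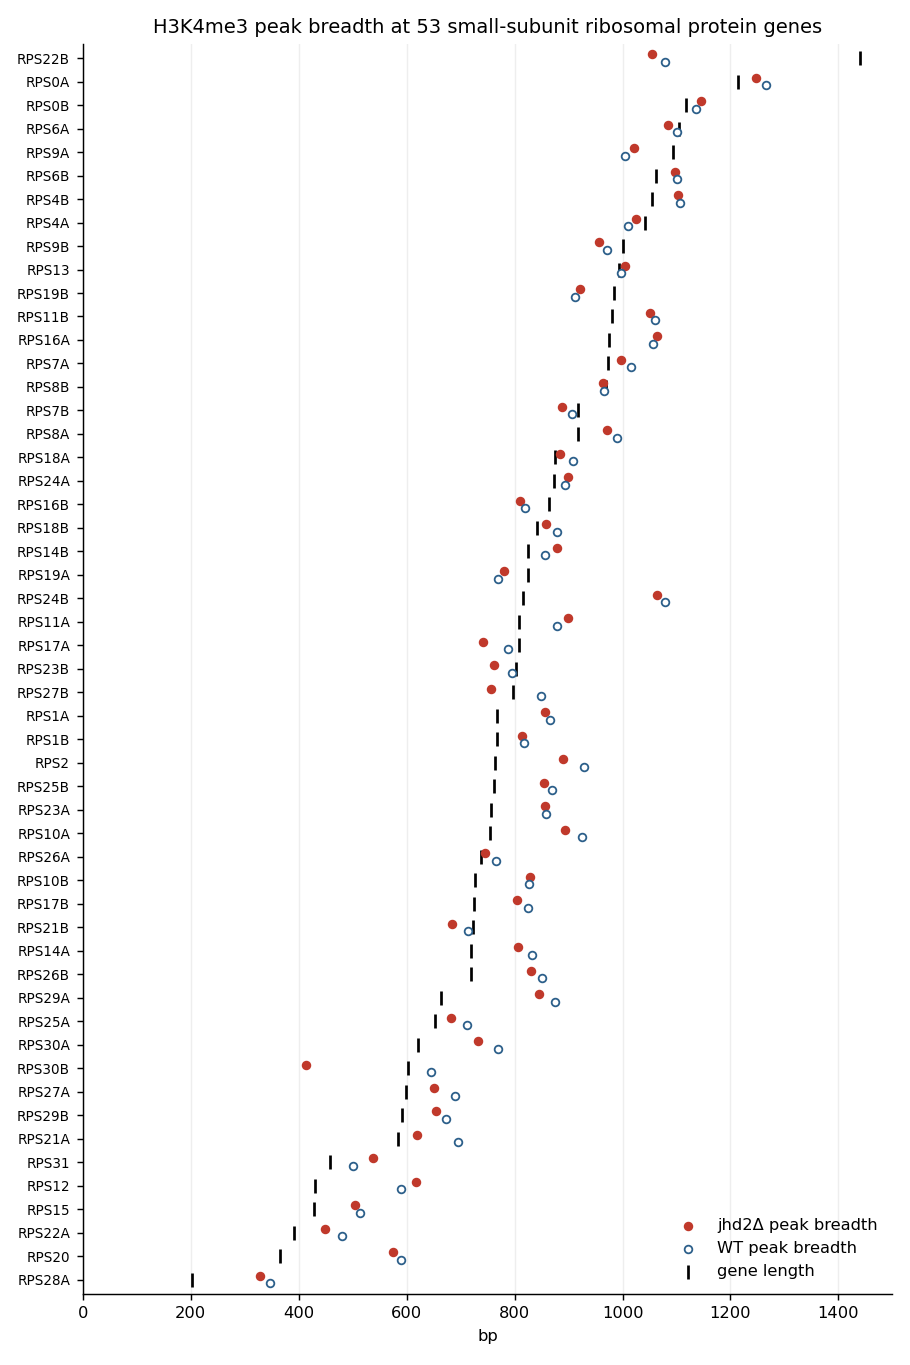
H3K4me3 peak breadth in bp at 53 of the 54 RPS genes with a peak in both lists, in *jhd2∆* (filled points) and WT (open points), 1 library each, with the gene's length as a black tick. Genes are ordered by length from *RPS22B* at the top to *RPS28A* at the bottom, and both sets of points follow the ticks, with *RPS30B* the clearest gap between genotypes (414 bp in *jhd2∆*, 645 bp in WT).

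**Figure D2:**
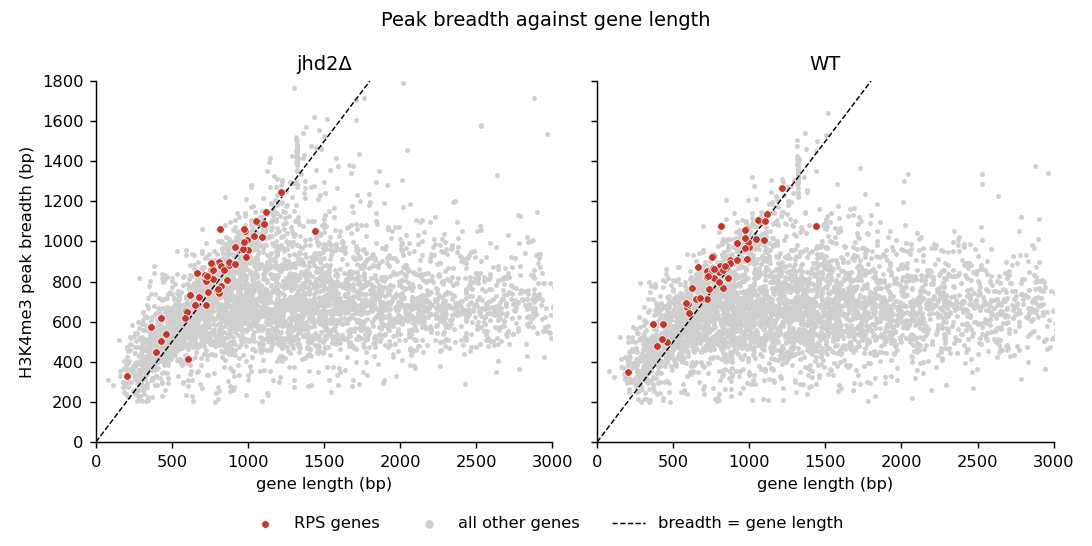
Peak breadth against gene length in bp for the 54 RPS genes (red) and other genes (grey) in *jhd2∆* (left) and WT (right), with breadth equal to gene length as the dashed line. RPS genes lie along the line in both panels, and 408 other genes beyond the axes are not drawn.

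RPS peaks were in the main slightly narrower in *jhd2∆* than in WT. Of the 54 genes, 14 had a wider peak in *jhd2∆* and 40 a narrower one, so that 25.9% were wider and 74.1% narrower, where 63.2% of all 4526 genes were wider and 35.9% narrower. The median difference, *jhd2∆* minus WT, was -16 bp for RPS genes (quartiles -25.75 to 1 bp) and 18 bp for the other genes (quartiles -13 to 61 bp). The RPS changes were small beside the breadths themselves. None of the 54 was wider by more than 50 bp, where 29.1% of all genes were, and 3 were narrower by more than 50 bp, where 5.86% of all genes were. At a limit of 25 bp, 2 RPS genes were wider and 14 narrower, where 43.3% and 16.0% of all genes were, and at 100 bp none was wider and 1 narrower, where 14.2% and 1.3% of all genes were. With the limit of 50 bp, the other 51 lay within 50 bp of their WT breadth, and breadths in the 2 genotypes had r = 0.98 across RPS genes.

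**Figure D3:**
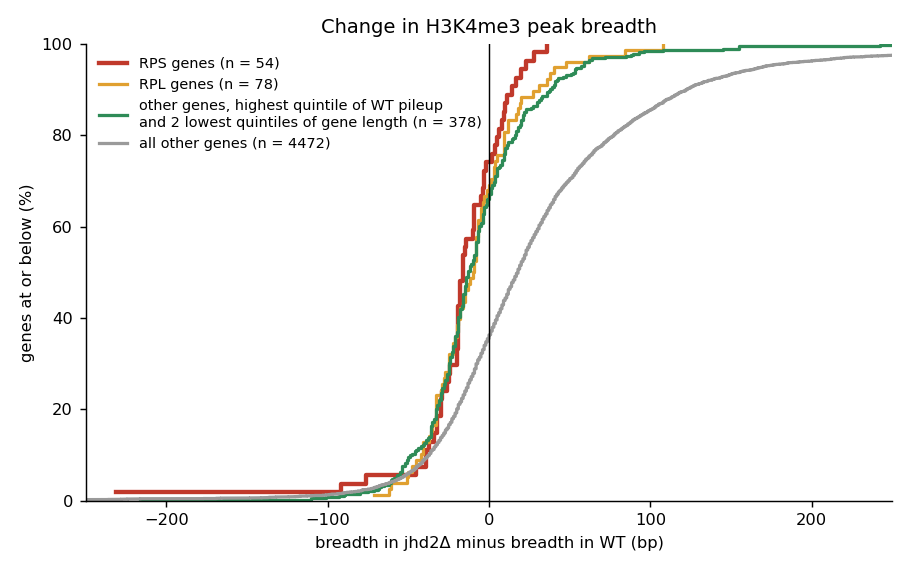
Cumulative share of genes (%) at or below each difference in breadth, *jhd2∆* minus WT in bp, for RPS genes, RPL genes, other tall short genes and all other genes. The RPS curve crosses 0 bp at 74.1% and ends at 36 bp, while the curve of all other genes reaches 0 bp far lower and runs on beyond 250 bp (121 of its genes lie outside the axis).

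The inward shift was mainly at the upstream edge. An edge shift is given as above 0 when the *jhd2∆* edge lies farther out from the peak than the WT edge, and below 0 when it lies farther in. The upstream edge of RPS peaks lay inward in *jhd2∆* at 52 of 54 genes, or 96.3%, where it did so at 80.6% of all genes. It did so at 91.0% of 78 large-subunit genes as well. In the highest quintile of WT pileup and the 2 lowest of length, it was inward at 94.1% of RPS genes and 87.5% of others. The median upstream shift was -24 bp for RPS genes (quartiles -29.75 to -12.25 bp) and -13 bp for other genes. The only RPS genes without an inward shift were *RPS31*, at 4 bp, and *RPS23A*, at 0 bp.

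The downstream edge moved outward less at RPS genes than over the whole list, and by median also less within quintiles of gene length. It lay outward in *jhd2∆* at 36 RPS genes and inward at 18, so that 66.7% were outward, where 77.4% of all genes were. The median downstream shift was 8 bp for RPS genes (quartiles -1.75 to 19 bp) and 29 bp for other genes (quartiles 3 to 70 bp). RPL genes had a median of 9.5 bp with 67.9% outward. In the shortest quintile of length, 14 RPS genes had -1 bp with 42.9% outward, and other genes 2 bp with 54.1%. In the next quintile, 32 RPS genes had 8.5 bp with 68.75% outward, and other genes 30 bp with 80.4%. In the middle quintile, 8 RPS genes had 19 bp with 100% outward, and other genes 48 bp with 86.9%. Among tall peaks on short genes, given below, the RPS genes had the larger median. In 35 of the 54 RPS genes the upstream edge was inward and the downstream edge outward. In 17 of the 54 both were inward, where both were inward at 17.3% of 4467 other genes. The farthest outward shift of a downstream edge was 53 bp, at *RPS12*, and the farthest inward one -32 bp, at *RPS21A*. Against the whole list, the RPS genes thus had a somewhat larger upstream shift and a smaller downstream extension.

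**Figure D4:**
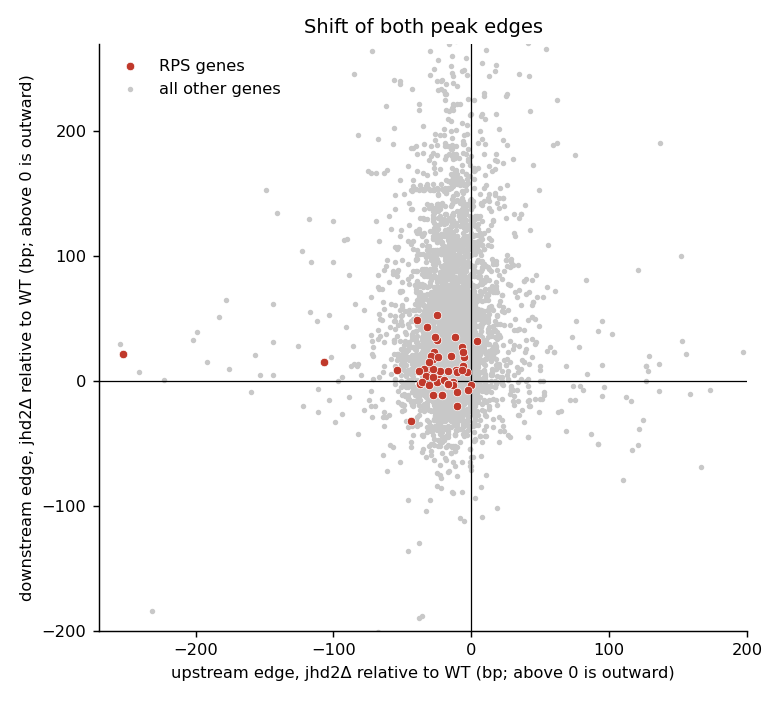
Shift of the upstream edge (horizontal axis) against that of the downstream edge (vertical axis), *jhd2∆* relative to WT in bp, with values above 0 outward, for RPS genes (red) and all other genes (grey). Of the RPS points 52 lie left of the vertical line, within a band from -32 to 53 bp on the vertical axis, and 109 other genes beyond the axes are not drawn.

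Other tall peaks on short genes changed in much the same direction, a comparison chosen after the data were seen. The RPL genes had median breadths of 841 bp in *jhd2∆* and 855 bp in WT and a median difference of -9.5 bp, with 24 wider and 53 narrower. Among other genes sorted into quintiles of WT pileup, the median difference was 44, 24, 16, 10 and 0 bp from the lowest quintile to the highest. Sorted into quintiles of gene length, it was -8, 18, 36, 29 and 20 bp from the shortest quintile to the longest. The 34 RPS genes that were both in the highest quintile of pileup and in the 2 lowest quintiles of length had a median difference of -18.5 bp, with 17.6% wider, and 378 other genes in the same quintiles had a median of -13 bp, with 32.8% wider. Leaving RPL genes out of those, 325 genes remained, with a median of -13 bp and 33.2% wider. The upstream shift had a median of -22 bp in the 34 RPS genes, -17 bp in all RPL genes and -15 bp in the 378 others, and the downstream shift 6.5 bp in the 34 and 2.5 bp in the 378. Other genes of like height and length thus shared the direction of the RPS genes, and the remaining difference between them was not tested.

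The largest decrease was at *RPS30B* (YOR182C), for a small body protein. Its peak lay on chromosome XV from 678159 to 678572 in *jhd2∆*, 414 bp, and from 678181 to 678825 in WT, 645 bp. The difference of -231 bp came from an upstream shift of -253 bp, with 22 bp outward downstream, and its WT pileup was the lowest of the family. *RPS27B* (YHR021C), for a zinc-binding body protein, had 757 bp in *jhd2∆* and 849 bp in WT, with an upstream shift of -107 bp. *RPS21A* (YKR057W), also for a body protein, had 619 bp in *jhd2∆* and 695 bp in WT, with both edges inward (-44 bp upstream and -32 bp downstream). These are the 3 genes beyond 50 bp. They were followed by *RPS17A*, for a head protein, with 742 bp in *jhd2∆* and 787 bp in WT. *RPS27A* and *RPS2* both had a difference of -39 bp, with 650 bp in *jhd2∆* and 689 bp in WT at *RPS27A* and 889 bp in *jhd2∆* and 928 bp in WT at *RPS2*.

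The largest increase was at *RPS31* (YLR167W), whose product is made as a fusion with ubiquitin. Its peak lay on chromosome XII from 498906 to 499442 in *jhd2∆*, 537 bp, and from 498910 to 499410 in WT, 501 bp, a difference of 36 bp. *RPS12* (YOR369C), for a protein of the beak of the head, had 618 bp in *jhd2∆* and 590 bp in WT. Its upstream edge shifted by -25 bp, so the gain of 28 bp was all on the downstream side. *RPS14B*, for a platform protein that in yeast represses the splicing of its own *RPS14B* transcript, had 879 bp in *jhd2∆* and 856 bp in WT. *RPS11A* had 899 bp in *jhd2∆* and 879 bp in WT, and *RPS9A*, for a protein that bears on decoding accuracy, had 1022 bp in *jhd2∆* and 1005 bp in WT.

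The single-copy genes were split in direction. *RPS31*, *RPS12* and *RPS13* were among those wider in *jhd2∆*, and *RPS2*, *RPS20* and *RPS15* were narrower. *RPS13*, for a body protein at a bridge to the large subunit, had 1005 bp in *jhd2∆* and 997 bp in WT. These breadths differed by 8 bp. *RPS20*, for a head protein, had 574 bp in *jhd2∆* and 589 bp in WT over a gene of 365 bp. *RPS15*, for a head protein near the decoding centre, had 504 bp in *jhd2∆* and 513 bp in WT. The duplicated genes had median differences of -18.5 bp over 24 A copies, with 6 wider and 18 narrower, and of -16 bp over 23 B copies, with 4 wider and 19 narrower. With 7 single-copy genes and no replicate library, a difference between the classes was not tested.

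Duplicated copies encode the same or nearly the same protein from different places in the genome, and both copies had a peak in both lists for 23 pairs. The change in breadth had the same direction in 15 pairs, of which 14 were narrower in both copies and 1, *RPS19*, wider in both, and the direction was opposite in 8. Most copies of either kind were narrower, 18 of 24 A copies and 19 of 23 B copies with a peak in both lists. Many pairs would therefore share a direction even if their copies changed independently. Whether the 2 copies of a pair agreed more often than unrelated copies was not tested. The changes of the 2 copies differed by 1 to 194 bp, with a median of 19 bp. Across pairs the change of the A copy and that of the B copy had r = 0.30 and rho = 0.46. The breadths themselves differed more between copies than between genotypes, by a median of 94 bp in *jhd2∆* and 99 bp in WT. In each list the longer copy had the wider peak in 16 of the 22 pairs of unequal gene length. Reads were aligned with the standard settings of Bowtie2, which place a read that matches both copies equally well at either of them at random, so 51-base reads can be shared where the coding sequences of a pair are near-identical. Whether such reads were removed later is not given in the sources used here.

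The pairs whose copies changed most differently were *RPS30*, *RPS27*, *RPS14* and *RPS21*. For *RPS30* the differences were -37 bp at the A copy, with 732 bp in *jhd2∆* and 769 bp in WT, and -231 bp at the B copy. For *RPS14* the signs were opposite, with -26 bp at the A copy, with 806 bp in *jhd2∆* and 832 bp in WT, and 23 bp at the B copy. In the *RPS27* pair the copies had -39 and -92 bp, and in the *RPS21* pair -76 bp and -29 bp, so both copies were narrower in each. At the other end, *RPS26A* and *RPS26B* had -19 and -20 bp, and *RPS7A* and *RPS7B* -18 and -19 bp. *RPS19A* and *RPS19B* had 11 and 9 bp, and *RPS18A* and *RPS18B* -24 and -19 bp. The *RPS22* pair differed most in breadth, with 449 bp in *jhd2∆* and 481 bp in WT at the A copy and 1054 bp in *jhd2∆* and 1079 bp in WT at the B copy, yet its changes were close, at -32 and -25 bp.

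**Figure D5:**
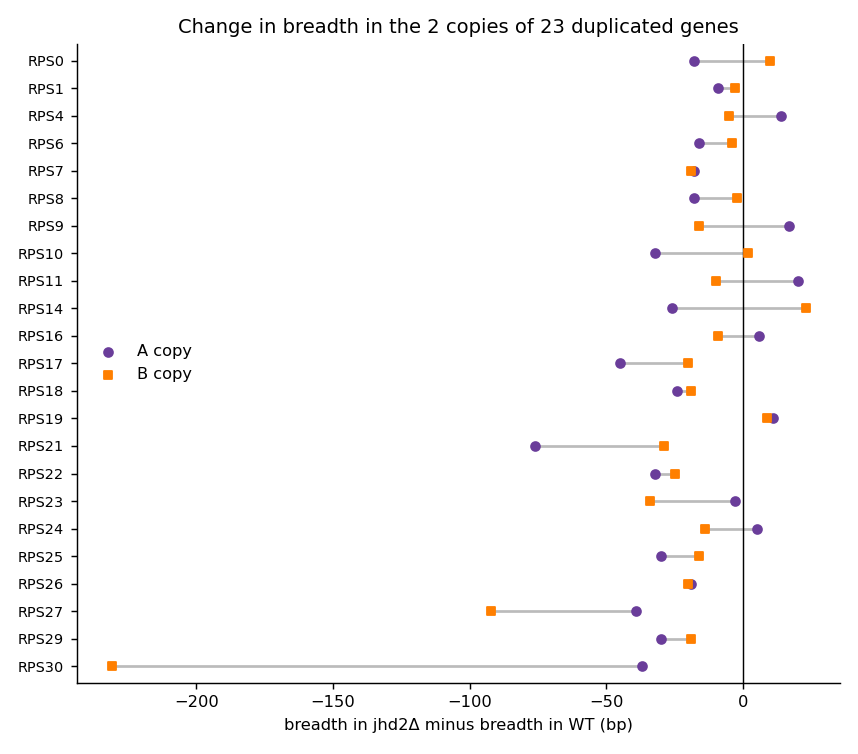
Difference in breadth, *jhd2∆* minus WT in bp, at the A copy (purple circles) and B copy (orange squares) of the 23 duplicated RPS genes with a peak for both copies in both lists, joined by a grey line. Both copies lie left of 0 in 14 pairs, and *RPS30* has the longest line, 194 bp.

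Genes for proteins of the head and of the body of the subunit had similar medians. The 20 genes for proteins of the head had a median difference of -15.5 bp, with 7 wider and 13 narrower, and the 34 for proteins of the body, platform included, had -17 bp, with 7 wider and 27 narrower. The 3 genes narrower by more than 50 bp all encode body proteins. The upstream shift had a median of -19.5 bp in head genes and -24.5 bp in body genes, and the downstream shift 8.5 bp in head genes and 8 bp in body genes.

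Of 12 further genes of the same pathway, regulators of ribosomal protein genes and factors of the small subunit, 7 had a peak in both lists, and 6 of them were wider in *jhd2∆* and 1 narrower, with a median of 27 bp, where 63.2% of all genes were wider with a median of 17 bp. *ASC1*, for the RACK1-type protein bound to the head of the subunit, had 1027 bp in *jhd2∆* and 872 bp in WT, with a downstream shift of 183 bp. *TSR2*, which encodes the chaperone of Rps26, had 504 bp in *jhd2∆* and 377 bp in WT, and *STM1*, for a protein that holds inactive ribosomes together, had 1060 bp in *jhd2∆* and 996 bp in WT. *YAR1*, for the chaperone of Rps3, had 664 bp in *jhd2∆* and 637 bp in WT. The direction was thus that of most genes in the lists. Among the regulators, *RAP1* had 684 bp in *jhd2∆* and 673 bp in WT, *FHL1* 755 bp in *jhd2∆* and 734 bp in WT, and *HMO1* 735 bp in *jhd2∆* and 741 bp in WT. *IFH1* had a peak of 818 bp in the *jhd2∆* list only, and *SFP1*, *CRF1*, *SCH9* and *TSR4* were in neither list.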

How the data were processed

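The authors aligned single-end reads with Bowtie2 2.2.3 at standard settings, ran MACS2 in its narrow mode to call H3K4me3 peaks, and gave a peak to a gene whose 5′ coding region it overlapped. The genome build and the control library of the peak calling are not given in the sources used here. The deposited lists give, for each peak, positions and breadth in bp, gene length in bp and pileup, a coverage signal whose scaling between libraries is not stated. Heights were therefore compared only as percentiles within a list. Positions are printed as the lists give them.

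The widest peak per gene was paired between genotypes, strand was read from the W or C of the systematic name, and the breadth limit was 50 bp. Symbols and neighbours came from the RefSeq R64 gene table, which also gave lengths for a check. No p-value was computed. Scripts ran on Python 3.11.15 with pandas 2.3.3 on numpy 2.4.6, intervals came from scipy 1.17.1, figures from matplotlib 3.10.9, and the edge computation was tested on simulated lists. The members and gene lists were chosen with earlier results of these data known. Values were given for absent genes, the 5 largest changes in each direction, the 4 most and 4 least different pairs, single-copy genes (1 of which is not reported here), the 3 tallest and 3 lowest WT peaks and 12 pathway genes. *RPS28A*, *RPS0A*, *RPS22B*, *RPS24B*, *RPS11B*, *RPS21B* and *RPS23A* were named or singled out after their values were seen. Planned descriptions of promoter motifs and introns were not analysed here.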

Additional observations from a re-analysis of the deposited data

How the results depend on the processing

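Of 47 values under alternative settings, 43 stayed close to those given, within a 95% interval over genes or, for counts, within 1.5 times, and none changed sign. The median RPS difference in breadth was between -18 and -12 bp, and the share of wider genes between 25.9% and 32.3%. Most alternatives used the same 54 genes, so they vary little by construction. The counts past a limit follow the limit, so that at 25 bp 2 genes counted as wider and 14 as narrower, and at 100 bp 1 as narrower. The correlation of WT breadth with gene length was 0.767 with RefSeq lengths, an alternative chosen after the data were seen, since 9 RPS genes are 315 to 564 bp longer in the deposited list. No paired analysis was possible because a genotype had no second H3K4me3 ChIP. Without replicates, the error of a single gene's difference is unknown.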

Other observations

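The 9 RPS genes whose listed length exceeds the RefSeq length (*RPS8A*, *RPS8B*, *RPS22B*, *RPS25A*, *RPS25B*, *RPS26A*, *RPS26B*, *RPS29A* and *RPS29B*) were all narrower in *jhd2∆*, with a median difference of -19 bp and a range of -30 to -2 bp. They were set apart after their values were seen, and 74.1% of all 54 RPS genes were narrower. Of 4473 genes of the WT list matched to RefSeq, 4444 have a listed length 1 bp below the RefSeq length and 29 another length, and these 9 are among the 29.

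The upstream shift was similar whichever way the nearest upstream gene is read. In 33 RPS genes that gene lies on the opposite strand, and the median upstream shift was -21 bp, inward in 31 of 33. In the 21 RPS genes that follow a gene on the same strand it was -25 bp, inward in 21 of 21. The median downstream shift was 8 bp in both.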
